A study of Mus musculus with 6 samples.

Results

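The 10 genes described here are the major histocompatibility complex (MHC) class II genes H2-Aa, H2-Ab1, H2-Eb1, H2-DMa, H2-DMb1, H2-DMb2, H2-Ob and Cd74, and the class II regulators Ciita and Rfx5. They were chosen by gene symbol, and each had 1 row among the 25899 symbols (25965 rows) of the count table. RNA was sequenced from 6 mouse cell lines that all carry BCR-ABL, the fusion kinase of the Philadelphia chromosome. The 3 lines labelled Cdk6 wild type (WT1, WT2 and WT3) belong to the arm that received the control plasmid pSpCas9(BB)-2A-GFP(px458). The 3 lines labelled Cdk6 knock out (KO1, KO2 and KO3) belong to the arm given the same plasmid with guide RNAs against CDK6, a kinase that pairs with D-type cyclins. Transfected GFP+ cells were sorted and plated singly, so a line can be a single clone with differences of its own, and the labels name a Western blot as the check of the knockout. The labels give no further agent, and they do not say whether the lines came from separate animals or starting cultures. The p-values below therefore measure only the spread between these 6 samples.

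MHC class II molecules present peptides from endosomes to CD4+ T cells, and are made by B cells, dendritic cells and macrophages. The α and β chains of H2-A and H2-E assemble on the invariant chain (Cd74), the chaperone H2-DM exchanges the last invariant chain fragment for peptide, and H2-DO restrains H2-DM in B cells. Transcription of these genes depends on a complex at conserved X and Y promoter boxes, in which the RFX factors (Rfx5 among them) and NF-Y bind DNA and the coactivator CIITA is recruited without binding DNA itself. Early B-lineage cells of the mouse have less class II on the surface than mature B cells.

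The promoter stretches that set the members apart are shown first, since the X and Y boxes are where RFX5 and NF-Y bind. RefSeq promoter windows (GRCm38.p6; 250 bases before to 50 after a start site) were matched for 7 of the 10 members: H2-Aa, H2-Eb1, H2-DMa, H2-DMb1, H2-DMb2, H2-Ob and Rfx5. H2-Ab1, Cd74 and Ciita had none. The pair searched was AGNAAC (core of the X box) followed on 1 strand by ATTGG (the Y box, CCAAT read on the other strand) with starts 25 to 45 bases apart. Each stretch is written 5′ to 3′ along the gene's own strand, with capitals for every AGNAAC and CCAAT match on either strand (CCAAT on the other strand reads ATTGG), and 12 bases on either side of the outermost element.
H2-DMb1 (chr17:34153084-34153146, plus strand): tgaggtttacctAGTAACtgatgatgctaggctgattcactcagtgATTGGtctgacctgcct
H2-DMb2 (chr17:34145113-34145175, plus strand): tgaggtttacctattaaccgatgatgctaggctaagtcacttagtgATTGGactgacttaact
H2-Ob (chr17:34238805-34238864, plus strand): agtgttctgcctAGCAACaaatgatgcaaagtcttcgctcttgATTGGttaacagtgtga
H2-Eb1 (chr17:34305763-34305824, plus strand): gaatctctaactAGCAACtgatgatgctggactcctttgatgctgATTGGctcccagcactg
H2-Aa (chr17:34287855-34287917, minus strand): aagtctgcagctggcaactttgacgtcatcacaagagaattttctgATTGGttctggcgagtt
Rfx5 (chr3:94953983-94954070, plus strand): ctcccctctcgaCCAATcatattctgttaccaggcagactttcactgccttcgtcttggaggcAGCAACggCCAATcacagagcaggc

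H2-DMb1, H2-Ob and H2-Eb1 held the ordered pair, with AGNAAC starting 95, 88 and 92 bases and ATTGG 61, 57 and 59 bases before the start site. The class II genes H2-Oa (77 and 43 bases) and H2-Eb2 (133 and 100 bases), which are no members, held it too. The pair was present in 1.14% of all 32851 promoter windows (376 windows). H2-DMb2, the neighbour and near copy of H2-DMb1, held ATTGG 90 bases before the start site of its window but not the hexamer. The letters at the matching place, 124 bases before that start, carry the substitution G2T relative to AGNAAC, counted from 1 at its 5′ end. H2-Aa likewise held ATTGG, 48 bases before its start, and at the matching place the substitution A1G. These near matches were looked for after the windows had been seen. Rfx5 held CCAAT in the forward direction 113 and 54 bases before its start, and AGNAAC 62 bases before and 22 bases after it. It held no ordered pair, since no ATTGG follows either hexamer. Neither of the 2 windows of H2-DMa held the pair. Those windows (chr17:34122582-34122881 and chr17:34125268-34125567) and that of H2-DMb2 (chr17:34144999-34145298) lie inside the genes as annotated. The genes start at chr17:34119541 and chr17:34143307, so their outermost starts were not searched. Single motifs were common: on either strand CCAAT was in 37.4%, AGNAAC in 48.1% and TGACG (part of the X2 box) in 20.8% of all windows. Among the members' windows only that of H2-Aa held TGACG, 74 bases before its start and, on the other strand, 71 bases before. A match describes letters in the window, not binding.

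Total counts ran from 17859519 (KO1) to 24108563 (WT1), so 3 counts, taken as the limit that a count of 0 allows, were worth 0.124 to 0.168 CPM (a gene's counts relative to the library total). The targeted gene, Cdk6, had 39.5, 44.96 and 55.8 CPM in WT1 to WT3 and 42.1, 72.6 and 40.4 in KO1 to KO3 (log2 change 0.14 ± 0.29 SE), and a count summed over its exons cannot tell an edited reading frame from an intact one, so it checks no label. KO2 was set apart from the other lines. Its correlation with them over log2 CPM was 0.846 to 0.922, highest with WT2, against 0.938 to 0.99 for all other pairs. Members' log2 changes that turn on KO2 are given with and without it. All 14 markers of pre-B and pro-B cells were above 1 CPM in every library, with Igll1 among the highest (summed level 5120 to 5304 CPM in WT and 4693 to 6063 in KO). Of 10 dendritic cell markers 2 to 3 were above 1 CPM (summed level 32.27 to 54.54 CPM in WT and 18.98 to 46.08 in KO, led by Bst2 and Flt3), and Cd209a, Batf3 and Siglech were at 0 throughout. Flt3 was lower in every KO line, with 20.2, 9.39 and 16.1 CPM in WT1 to WT3 and 8.90, 0 and 8.03 in KO1 to KO3. Its edgeR log2 change was -1.48 ± 1.38 (edgeR adjusted p = 0.762), and DESeq2 called it only without WT2 and KO2 (adjusted p = 0.00335). Bst2 (0.11 ± 0.35) and Ccr7 (-0.50 ± 1.55) overlapped between groups. Of 11 macrophage and monocyte markers 3 to 5 were above 1 CPM (38.67 to 64.72 and 25.63 to 57.56, led by Lyz2 and Fcgr1), with Adgre1, C1qa, C1qb and Ly6c2 among those at 0. Lyz2, the lysozyme gene of myeloid cells, was lower in every KO line. It had 38.7, 26.8 and 37.0 CPM in WT1 to WT3 and 12.4, 15.3 and 15.2 in KO1 to KO3. Its edgeR log2 change was -1.27 ± 0.19 (edgeR adjusted p = 0.479, DESeq2 adjusted p = 1.15e-05). The other tested markers of that list overlapped between groups: Itgam (log2 1.85 ± 1.44) and Cd68 (0.21 ± 0.27) were above 0, and Fcgr1 (-0.42 ± 0.48) was below. Cd14, too low for edgeR, had 0.395 to 1.41 CPM in WT and 0 to 0.392 in KO. The part of Lyz2 or Flt3 in the members' values was not tested. Of the 8 mature B cell markers with a row 3 were above 1 CPM (445.9 to 587.2 and 335.5 to 576.6, led by Cd37 and Cr2), and Ms4a1, Fcer2a and Cd83 were at 0.

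The members spanned a wide range of levels. Per kilobase of annotated exon (CPM per kb, mean of all 6 libraries) the invariant chain Cd74 was highest at 106.4, followed by H2-Ob at 8.79 and Rfx5 at 6.46. H2-DMb1 followed at 2.22, H2-DMb2 at 1.86, H2-Ab1 at 1.084 and H2-DMa at 0.991 CPM per kb. The means hide the spread between lines: H2-DMb2 exceeded H2-DMb1 in 4 of the 6 libraries, KO1 and KO3 being the exceptions, and H2-Ab1 was at 0 in 4 of 6. H2-Aa (0.106), H2-Eb1 (0.0345) and Ciita (0.0341) were lowest on this scale, so the classical α and β chains and their coactivator were close to undetected in most lines that had abundant Cd74. Of the neighbours in that order only H2-DMa and H2-Aa had ranges over the libraries that were apart (0.481 to 1.54 against 0.052 to 0.162 CPM per kb), and all other neighbours overlapped, Cd74 (15.1 to 166) and H2-Ob (4.16 to 22) included.

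**Figure D1:**
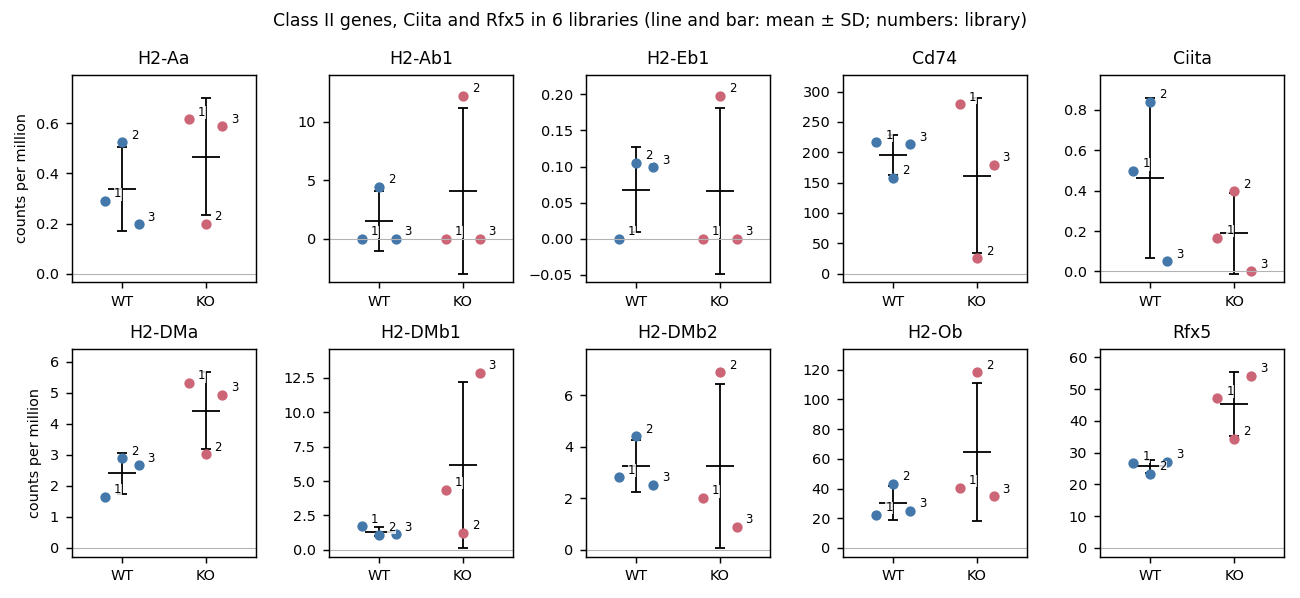
Level of each member in CPM (vertical axis, linear, own scale per gene) in the 3 WT and 3 KO libraries; points are libraries with their number, the long horizontal line and bar are the mean and SD. Only Rfx5 and H2-DMa have all KO points above all WT points, H2-Ab1 is above 0 in WT2 and KO2 alone, and Cd74 is lowest in KO2; SD bars that pass below 0 do not stand for possible levels.

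Of the 10 members 7 passed the filter on low counts and were tested by edgeR's quasi-likelihood test over 10896 rows. H2-Ab1, H2-Eb1 and Ciita did not pass it and are given by their counts. None of the 7 passed an adjusted p of 0.05, nor did any other row (0% called; smallest adjusted p over all rows 0.475). At an unadjusted p under 0.05 there were 2, Rfx5 and H2-DMb1, against 9.45% of all tested rows. DESeq2 called 1 of the 8 members to which it gave an adjusted p, Rfx5, against 1.94% of 11212 rows. Without WT2 and KO2 it called 3 of 8, Rfx5, H2-DMb1 and H2-Ob, all higher in KO, against 2.89% of 11752 rows. All 3 KO libraries were above all 3 WT libraries for 2 of the 7, Rfx5 and H2-DMa, against 10.6% of tested rows by CPM on library totals and 8.53% by TMM-scaled CPM, which gave the same 2. No tested member had all KO libraries below all WT libraries, against 8.68% and 11% of tested rows on those scales. The log2 change was above 0 for 6 of the 7, with a median of 0.79 against 0.015 over all tested rows (0.786 without KO2). The members that passed the filter are not all members, and this median describes them alone.

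The classical chains, which form the peptide groove, were measured from few reads. H2-Aa, the α chain of H2-A (GRCm38, GENCODE M21, as for all members: chr17:34282744-34287823, minus strand), had 7, 10 and 4 counts in WT1 to WT3 and 11, 4 and 12 in KO1 to KO3. That is 0.338 ± 0.169 CPM in WT and 0.467 ± 0.233 in KO (SD, n = 3 each), and the groups overlapped, with KO1 and KO3 highest and KO2 level with WT3. In edgeR KO minus WT was 0.43 ± 0.61 on the log2 scale (± SE here and below; adjusted p = 0.849), and its 95% interval of -1.1 to 1.94 takes in both a fall and a rise of more than 1 log2 unit. On so few counts single lines moved the value, to 0.883 without WT2, 0.786 without KO2, 0.165 without WT3, 0.192 without KO1 and 0.246 without KO3. In RNA from bulk cultures, fewer cells that express a gene and less of its RNA per cell cannot be told apart.

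H2-Ab1, the β chain that pairs with H2-Aa (chr17:34257689-34269419, plus strand), was found in 2 libraries alone. It had 85 counts (4.46 CPM) in WT2 and 247 counts (12.24 CPM) in KO2, and 0 in WT1, WT3, KO1 and KO3. A count of 0 allows up to 0.124 CPM in WT1, 0.148 in WT3, 0.168 in KO1 and 0.147 in KO3, so each group held 1 line with H2-Ab1 reads and 2 lines below that limit. Its partner H2-Aa was at 0.525 CPM in WT2, the highest of the WT lines, and at 0.198 in KO2, the lowest of the KO lines. H2-Eb1, the β chain of H2-E (chr17:34305867-34316674, plus strand), had 0, 2 and 2 counts in WT1 to WT3 and 0, 4 and 0 in KO1 to KO3, and any difference between groups was not detectable at this depth. Prdm1, for the plasma cell repressor Blimp-1 and named here after its values were seen, was found in the same pair of lines as H2-Ab1, at 2.73 CPM in WT2 and 5.5 in KO2 and at 0 in the other 4. The summed level of the 6 plasma cell markers, which include Prdm1 and are led by Xbp1 and Irf4, was 197.6 to 277.6 CPM in WT. In KO it was 179.3 to 434.1 CPM, highest in KO2, and Tnfrsf17 was at 0 throughout. Xbp1 had 273.7 CPM in KO2 and 65.9 to 102 in the other lines, and Jchain was also highest in KO2 (13.1 CPM). Irf4 was not (99.5 CPM in KO2 and 133.8 in KO3), and Sdc1 was lowest in KO2 (42.3 CPM). The part of these markers in the H2-Ab1 values was not tested.

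Cd74 encodes the invariant chain, which blocks the groove and routes class II to endosomes (chr18:60803848-60812652, plus strand). It had 216.5, 158 and 213.2 CPM in WT1 to WT3 and 279.1, 25.33 and 179.7 in KO1 to KO3. KO1 was above every WT line, KO3 lay within them and KO2 was far below all other libraries. The change was -0.32 ± 0.75 on the log2 scale (95% interval -2.19 to 1.54; edgeR adjusted p = 0.91), and without KO2 it had the other sign, 0.19 ± 0.23. KO2 stood at a log2 ratio of -3.06 to the mean of WT1 and WT3. Other genes of chromosome 18 were lower in KO2 as well, with a median ratio of -0.62 over 209 genes and -0.59 over the 27 genes within 5 Mb of Cd74, while WT2 stood at -0.2 for both sets. Cd74 in KO2 lay well below both medians, and the part of the chromosome in its level was not tested.

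H2-DM loads peptide onto class II and consists of H2-DMa with a β chain from H2-DMb1 or H2-DMb2. H2-DMa (chr17:34119541-34139101, plus strand) had 1.66, 2.89 and 2.67 CPM in WT1 to WT3 and 5.32, 3.02 and 4.95 in KO1 to KO3. All KO lines were above all WT lines, although KO2 exceeded WT2 by little. The difference was 1.8-fold (log2 0.85 ± 0.35, 95% interval -0.01 to 1.71; unadjusted p = 0.0514, edgeR adjusted p = 0.532), and DESeq2 made no call either (adjusted p = 0.385). Exons of H2-DMa overlap those of Brd2 on the opposite strand, and the strand setting of the counting is not given in the sources used here. Brd2, a bromodomain protein gene, was at 439 to 540 CPM and lower in every KO line (-0.20 ± 0.08).

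H2-DMb1 (chr17:34153072-34160230, plus strand) had 1.70, 1.10 and 1.14 CPM in WT1 to WT3 and 4.37, 1.24 and 12.88 in KO1 to KO3. KO3 was highest and KO1 next, both above all WT lines, while KO2 lay within the WT range. Each KO line was above the WT line of its number. The fitted level was 4.52-fold higher in KO (log2 2.17 ± 0.83, 95% interval 0.12 to 4.23; unadjusted p = 0.0413, edgeR adjusted p = 0.524). KO3 carried much of it: without KO3 the log2 change was 1.07 (edgeR adjusted p = 0.617). Without KO2 it was 2.66 ± 0.51 (adjusted p = 0.19), and without WT2 and KO2 DESeq2 called it (2.56 ± 0.65, adjusted p = 0.00653). H2-DMb2 (chr17:34143307-34151555, plus strand) went the other way in the same lines, with 2.82, 4.41 and 2.52 CPM in WT1 to WT3 and 2.02, 6.89 and 0.882 in KO1 to KO3. Here KO2 was highest, and KO1 and KO3 were below every WT line. Over all 6 libraries the log2 change was 0.02 ± 0.79 (edgeR adjusted p = 0.998), and without KO2 it was -1.21 ± 0.49 (adjusted p = 0.267).

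The 2 β chain genes share sequence: of their distinct 50-base transcript stretches, 369 were common to both, which is 22.7% of those of H2-DMb1 and 21.2% of those of H2-DMb2, so part of the reads could have been dropped or assigned to the wrong copy. No other gene shared 5% or more of such stretches with a member. The relative use of the copies is therefore given as the share of H2-DMb1 in the counts of both. It was 37.6% in WT1 (exact 95% binomial interval 28.5 to 47.4), 20% in WT2 (12.8 to 28.9) and 31.1% in WT3 (20.8 to 42.9). In the KO lines it was 68.4% in KO1 (59.1 to 76.8), 15.2% in KO2 (10.1 to 21.7) and 93.6% in KO3 (90.1 to 96.2). H2-DMb2 held most of the counts in every WT line and in KO2, and H2-DMb1 in KO1 and KO3. The intervals cover counting error only, over 74 to 281 counts a library.

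**Figure D2:**
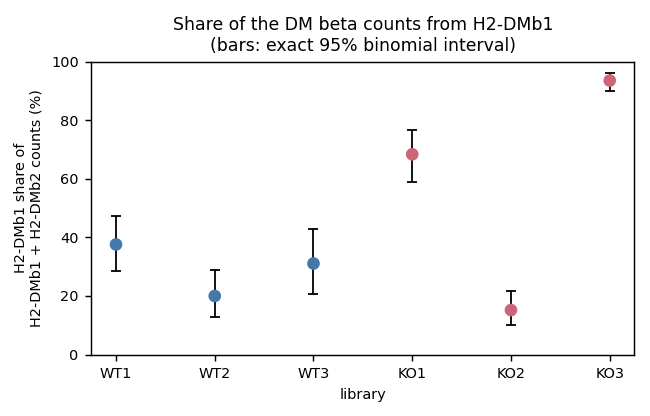
Share of H2-DMb1 in the counts of H2-DMb1 and H2-DMb2 (percent, vertical axis) in each library, with exact 95% binomial intervals that cover counting error only. KO1 (68.4%) and KO3 (93.6%) lie above the WT libraries, whose shares are 20% to 37.6%, and KO2 (15.2%) does not.

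H2-Ob is the β chain of H2-DO, the B cell inhibitor of H2-DM (chr17:34238903-34254414, plus strand). It had 22.4, 43.0 and 24.8 CPM in WT1 to WT3 and 40.5, 118.1 and 34.7 in KO1 to KO3. KO2 was highest, but WT2 exceeded KO1 and KO3, so the groups overlapped, and both WT2 and KO2 exceeded the other lines of their group. Compared by number, each KO line was above its WT line, and with the number as a block the log2 change was 0.914 (edgeR adjusted p = 0.528). The change was 2.15-fold (log2 1.10 ± 0.58, 95% interval -0.33 to 2.54; edgeR adjusted p = 0.588) and 0.28 ± 0.31 on the log2 scale without KO2. Without both WT2 and KO2 it was 0.64 ± 0.13 (edgeR adjusted p = 0.232), which DESeq2 called (0.63 ± 0.19, adjusted p = 0.0369). Its partner, the α chain H2-Oa, is no member and lies just outside that stretch of chromosome 17: it had 3.40, 4.83 and 4.30 CPM in WT1 to WT3 and 6.999, 8.03 and 6.27 in KO1 to KO3. All KO lines of H2-Oa were above all WT lines (log2 0.75 ± 0.25, edgeR adjusted p = 0.495). Its exons overlap an antisense gene, BC051537, so reads of the pair may be mixed.

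Ciita encodes the coactivator that sets class II transcription (chr16:10480059-10528418, plus strand). It had 12, 16 and 1 counts in WT1 to WT3 and 3, 8 and 0 in KO1 to KO3, at most 0.839 CPM, and WT3 and KO3 were the lowest of their groups. It was too low for the edgeR filter, and DESeq2 gave a log2 change of -1.28 ± 1.70 (adjusted p = 0.877), so no difference was detectable at this depth. Ciita shares exon sequence with Dexi on the opposite strand, which was at 5.70 to 9.41 CPM. The few reads of Ciita cannot be told apart from reads of that gene if the counting ignored strand.

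Rfx5 encodes the largest DNA-binding subunit of the RFX complex (chr3:94954075-94961561, plus strand). It had 26.6, 23.3 and 27.2 CPM in WT1 to WT3 and 47.2, 34.5 and 54.2 in KO1 to KO3. All KO lines were above all WT lines, KO2 being the lowest of the 3. The mean was 25.7 ± 2.1 CPM in WT and 45.3 ± 10.0 in KO (SD, n = 3 each), and the fitted level was 1.73-fold higher in KO (log2 0.79 ± 0.16, 95% interval 0.39 to 1.19; unadjusted p = 0.00315, edgeR adjusted p = 0.479). DESeq2 called the rise at 0.80 ± 0.19 (adjusted p = 0.00614), so the call depends on the tool. Without KO2 the edgeR value was 0.94 ± 0.11 (adjusted p = 0.178). Its exons overlap the antisense gene B230398E01Rik. The other RFX subunits, named after their values were seen, overlapped between groups: Rfxank had 11.7 to 14.7 CPM in WT and 14.1 to 17.2 in KO, and Rfxap 16.3 to 20.9 and 13.0 to 20.0.

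**Figure D3:**
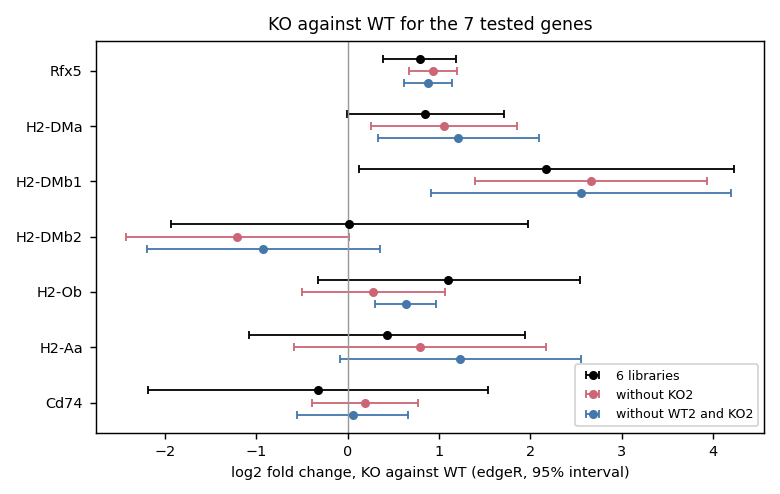
Log2 fold change of KO against WT (horizontal axis) for the 7 tested members from edgeR with 95% intervals: all 6 libraries in black, without KO2 in red, and without WT2 and KO2 in blue. The intervals of Rfx5 and H2-DMb1 lie wholly above 0 in all 3 fits. H2-DMa, H2-Ob and H2-Aa have points above 0 in all 3, but not in every fit an interval wholly above 0. Cd74 and H2-DMb2 change sign with KO2.

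The members did not vary as 1 group. In 4 of the 10 members (H2-Ab1, H2-Eb1, H2-DMb2 and H2-Ob) KO2 was highest and WT2 second, H2-Eb1 on 4 counts or fewer. In another 4 (H2-Aa, H2-DMa, H2-DMb1 and Rfx5) KO1 and KO3 were the highest pair. Cd74 and Ciita followed neither order. Among all tested rows these orders were seen in 11.5% and 19%, and among the 7 tested members in 2 and 4. The orders were noticed after the values had been seen and are a description. Across the 6 libraries, H2-DMb1 and Rfx5 had a Pearson r of 0.901, H2-DMa and Rfx5 0.835, H2-Ob and Cd74 -0.893, and H2-DMb1 and H2-DMb2 -0.866. These correlations rest on 6 points that share library and clone, and no p is given. KO2 had the highest H2-Ob (118.1 CPM) and the lowest Cd74 (25.33 CPM). KO3 had the highest H2-DMb1 and Rfx5 and the lowest H2-DMb2. A single line can set such an r, and none was computed without KO2 or KO3.

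The genes most like some members over the 6 libraries (Pearson r of log2 CPM, among 8902 genes with at least 5 CPM) were found in the same way. For Cd74 they were Cpped1 (r = 0.999), Rnf44 (0.998) and Grhpr (0.997). Cpped1 had 67.2, 55.4 and 65.6 CPM in WT1 to WT3 and 73.6, 19.6 and 56.6 in KO1 to KO3, and so was low in KO2 as Cd74 was. For Rfx5 they were Klhl24 (0.993), Erlec1 (0.993) and Atp10a (0.991), and for H2-DMa they included H2-Q7 (0.991) and Slamf6 (0.97). H2-Q7 is an MHC class I gene of the same chromosome. Ciita was too low to be compared.

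All members but Cd74, Ciita and Rfx5 lie in 1 stretch of chromosome 17 (chr17:34119693-34316674), which also holds genes of class I antigen processing. Of the 5 tested genes there that are no class II genes, 4 had a log2 change above 0, with a median of 0.47 (0.285 without KO2 and 0.806 without WT2), and edgeR called none. The peptide transporter genes Tap1 (0.57 ± 0.21) and Tap2 (0.67 ± 0.24) and the immunoproteasome genes Psmb9 (0.47 ± 0.34) and Psmb8 (0.39 ± 0.31) were the 4, and Brd2 was the other. Tap1 was 74.4, 117.7 and 80.5 CPM in WT1 to WT3 and 138.8, 148.3 and 122.0 in KO1 to KO3, all KO lines above all WT lines on library totals, but by TMM-scaled CPM KO3 (117.7) was below WT2 (119.4). The class II genes beside them ranged from 0.02 ± 0.79 (H2-DMb2) to 2.17 ± 0.83 (H2-DMb1) on the log2 scale. The 95% intervals of these extremes overlapped (-1.94 to 1.97 and 0.12 to 4.23). In Psmb9, Tap1, Psmb8, Tap2, H2-Ob and H2-DMb2, WT2 was the highest WT line and KO2 the highest KO line. KO2 was the lowest KO line in H2-DMa, H2-DMb1 and H2-Aa. Whether values are shared by position was not tested. Within 5 Mb of the region, 121 genes had a median log2 ratio to the mean of WT1 and WT3 between 0.041 and 0.085 in the KO lines and WT2.

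**Figure D4:**
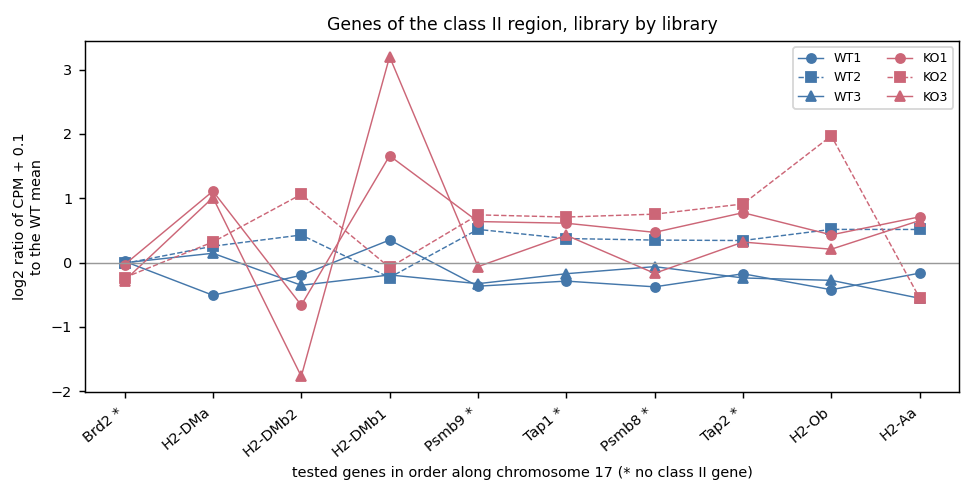
Log2 ratio of each library to the WT mean (vertical axis; CPM plus 0.1) for the tested genes of the class II region in their order along chromosome 17 (horizontal axis, not to scale); circles, squares and triangles are lines 1, 2 and 3, blue WT and red KO, with WT2 and KO2 dashed. H2-DMb1 lies above 0 and H2-DMb2 below 0 in KO1 and KO3. KO2 is the highest library at H2-DMb2, Psmb9, Tap1, Psmb8, Tap2 and H2-Ob.

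Among other genes of the pathway edgeR called none in any list (median log2 change of all tested rows 0.015). DESeq2 called 1.94% of 11212 rows over all genes, the share to set beside its calls in each list. Of the class II enhanceosome and its cofactors, with Rfx5 among them, 18 of 19 were tested, 11 were above 0 and the median was 0.06 (0.031 without KO3). DESeq2 called Rfx5 alone of that list. The smallest p outside the members belonged to Atf1, a CREB-family factor, which had 66.9, 63.6 and 65.8 CPM in WT1 to WT3 and 60.8, 52.4 and 56.0 in KO1 to KO3 (log2 -0.24 ± 0.07, edgeR adjusted p = 0.491). Kat2b, an acetyltransferase, was higher in every KO line (0.46 ± 0.18), and Nfyc (-0.22 ± 0.10) and Sin3a (0.16 ± 0.08) were next.

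The interferon-gamma route drives Ciita in other cells: Ifng itself was at 0 in all 6 libraries, 14 of 16 genes were tested, 11 were above 0 and the median was 0.20. These values rested on KO2: without it 6 of the 14 were above 0 and the median was -0.07. Irf2, an interferon regulatory factor, had 53.9, 60.6 and 48.5 CPM in WT1 to WT3 and 67.3, 96.3 and 71.9 in KO1 to KO3, above every WT line but not called (log2 0.52 ± 0.19, edgeR adjusted p = 0.512). Irgm1 was at 0.47 and Usf2 at -0.11 on the log2 scale. Of the B-lineage regulators of class II 15 of 16 were tested, 11 were above 0 and the median was 0.21, against 8 of 15 and 0.00412 without KO2. DESeq2 called 2 of them higher in KO, Foxo1 (115.4, 130.5 and 121.4 against 177.7, 159.4 and 188.7 CPM; edgeR log2 0.49 ± 0.08, DESeq2 adjusted p = 8.73e-06) and Bach2 (0.70 ± 0.15, 0.00569). Irf8, which was 273 CPM in KO2 and 86.2 in WT2 and 26.3 to 63.2 in the other lines, differed by 1.39 ± 0.80 (edgeR adjusted p = 0.616), and Pax5 by 0.13 ± 0.07.

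Of the endosomal proteases and processing genes 11 of 13 were tested, and 1 was above 0, with a median of -0.24 (-0.136 without WT2 and KO2, and 3 above 0 without KO2). DESeq2 called 2 lower in KO. Psap, the saposin precursor of the lysosome, had 554, 539 and 561 CPM in WT1 to WT3 and 444, 393 and 411 in KO1 to KO3 (edgeR log2 -0.43 ± 0.06; DESeq2 adjusted p = 1.88e-08). Lgmn, an asparagine-specific endopeptidase, had a log2 change of -0.49 ± 0.10 (DESeq2 adjusted p = 0.00472), and Ctsd (-0.24) and Tfeb (-0.19) were not called. Of the costimulation genes 8 of 11 were tested, 5 were above 0 and the median was 0.17, with no stable sign: it was -0.188 without KO1, -0.119 without KO3, -0.0686 without WT2 and -0.137 with voom. Neither tool called any tested by edgeR. Their smallest p-values belonged to Icam1 (log2 0.24), Icosl (1.72 ± 1.5), Cd48 (-0.16) and Pdcd1lg2 (-1.1 ± 1.28). Cd86, the ligand of CD28, was too low for edgeR at 4.31, 0.420 and 5.73 CPM in WT1 to WT3 and 0.336, 0 and 0.0490 in KO1 to KO3, was called lower by DESeq2 (adjusted p = 0.0407), and was chosen after its values were seen.

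The MHC class I genes, which present cytosolic peptides and share the RFX and NF-Y boxes, had a higher median (0.57) than the other lists, the class II list excepted, and all 14 were above 0 (13 without KO2). All KO lines were above all WT lines for 8 of the 14 on library totals, against 10.6% of all tested rows. By TMM-scaled CPM this held for 4, against 8.53% of all tested rows. DESeq2 called 4 of the 14 higher in KO, against 1.94% of all rows called in either direction. H2-K1 had 258, 303 and 257 CPM in WT1 to WT3 and 413, 418 and 400 in KO1 to KO3 (edgeR log2 0.57 ± 0.09, DESeq2 adjusted p = 2.81e-05). The others were H2-Q4 (0.85 ± 0.18), H2-Q7 (3.03 ± 0.76) and H2-Q6 (2.98 ± 0.97). The class II list of 10, which adds H2-Oa and H2-Eb2 and has no regulators, had 8 tested genes, of which 7 were above 0, with a median of 0.73 (0.451, with 6 above 0, without KO2) and 0 called by either tool with all 6 libraries. H2-Eb2, a second β chain gene of the H2-E kind, had 0.996, 4.72 and 1.24 CPM in WT1 to WT3 and 2.02, 8.58 and 0.735 in KO1 to KO3, so WT2 and KO2 were highest, as for H2-Ab1.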

How the data were processed

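RNA of 6 lines was made into TruSeq libraries and sequenced (labels' protocols). The authors deposited 1 table of unnormalized read counts per gene symbol, with 1 column per library. STAR, Trim Galore, DESeq2 and the GRCm38 build are named in the submitters' processing notes. Not given in the sources used here: tool versions and roles, the counter, its annotation and whether it used strand. Of 25965 rows 66 repeated a symbol and were kept, and 11635 were at 0 in all libraries.

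The main fit was edgeR 4.0.16 (R 4.3.3): TMM scaling, filterByExpr on genotype, robust quasi-likelihood F test of KO against WT over all 6 libraries, two-sided, Benjamini-Hochberg adjusted p under 0.05. DESeq2 1.42.0 and limma 3.58.1 (voom) were alternatives, as were other scalings and filters, a replicate block and leaving out libraries. An adjusted p of NA in DESeq2 was left out. For correlations, CPM was taken on the log2 scale (prior count 2), and neighbourhood ratios an offset of 0.5 CPM.

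The labels number WT and KO lines alike. Deviations from the group mean correlated at 0.325, 0.644 and 0.457 for numbers 1, 2 and 3, each over 0.1, so the numbers were treated as pairing in the block fit. WT1 with KO3 (0.406) and WT3 with KO1 (0.36) were also over it. Deviations cancel out within a group, so a shared deviation of WT2 and KO2 by itself raises the values among lines 1 and 3. The criterion therefore cannot show that lines of the same number belong together.

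Gene coordinates, exon lengths, overlaps and shared stretches came from GENCODE M21, the limits of the class II region and the promoters from RefSeq (GRCm38.p6). Start sites can differ between the sources.

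All members were named; from other lists the 4 genes with the smallest unadjusted p and any gene called; from marker lists the 2 highest and those at 0. Some genes that these rules name are not reported here. DESeq2 calls were named as well, after the data had been seen. The members, lists and tests were chosen with earlier results of these data known.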

Additional observations from a re-analysis of the deposited data

How the results depend on the processing

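The count of members past the threshold was 0 in edgeR, also with RLE factors, library totals, other filters, no robust estimates, voom, each library left out and the replicate block (Rfx5 0.77, adjusted p = 0.528 with the block). It was 1 in DESeq2, which called 1.94% of 11212 rows, and 3 in DESeq2 without WT2 and KO2, which called 2.89% of 11752 rows. These shares of all rows also stand beside the DESeq2 counts that follow. For the 81 other pathway genes that edgeR tested, a set without Cd86, the counts were 0, 8 and 14, and for the 5 other tested genes of the region 0 in edgeR and 2 in DESeq2 without WT2 and KO2. H2-DMb2 changed sign from 0.02 to -0.47 with voom, -0.44 with the replicate block, and -0.92 in edgeR and -0.93 in DESeq2 without WT2 and KO2; leaving out 1 library gave -1.21 to 0.47. Cd74 changed sign from -0.32 to 0.0566 in edgeR and 0.0558 in DESeq2 without WT2 and KO2; leaving out 1 library gave -0.98 to 0.19. Leave-one-out values kept their direction for Rfx5 (0.66 to 0.94), H2-DMa (0.65 to 1.05), H2-DMb1 (1.07 to 2.66), H2-Ob (0.28 to 1.46) and H2-Aa (0.17 to 0.88). The cause of these shifts was not tested. Depth limits H2-Aa, H2-Eb1 and Ciita, each at 16 counts or fewer.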
